A study of Bos taurus with 2 samples.

Results

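The 9 genes described here are the Janus kinases JAK1, JAK2, JAK3 and TYK2 and the transcription factors STAT2, STAT3, STAT4, STAT5A and STAT6, chosen by gene name among 32428 gene names on a bovine expression array. They were read by 23 probes on 26 spots, of 51279 probes on 61644 spots. The samples were testis tissue of crossbred bulls (Holstein Friesian crosses, 50 to 75% exotic by descent) and of Zebu bulls of the Tharparkar breed. Each group was 1 pool of total RNA from 3 bulls aged 24 months, labelled with Cy3 from an oligo dT primer and hybridized to 1 array, with both arrays on 1 slide. No experimental treatment was given, slices from the middle of 1 testis per bull were used whole, and the array was designed on the Bos taurus genome. With 1 array per group there was no replicate of either breed group, so no test was possible and every difference below compares those 2 arrays.

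Janus kinases are bound to the inner side of cytokine and hormone receptors that have no kinase of their own. When a ligand joins the receptor chains, the kinases phosphorylate each other and the receptor, STAT proteins dock there through their SH2 domains, are phosphorylated in turn, and enter the nucleus as dimers to switch on genes such as the SOCS feedback inhibitors. In the testis, receptors for prolactin, growth hormone, leptin and interleukins lie on somatic cells and germ cells, and STAT4 is also known from developing sperm cells.

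The sequences below show which piece of each transcript the array reported. All 23 probes were 60 bases long, with a GC content of 35% to 55%, and positions are those of the array's own build, HGSC Btau_3.1. The STAT4 value rests on a single probe at chr2:83428496-83428555 on the minus strand, and a stop triplet stands in each of its 3 forward reading frames, as do stops in 7 of the 23 JAK and STAT probes (30.4%) and in 14.2% of all probes. Bases 10 to 39 of it are given with 1 stop triplet of each frame in capitals:
STAT4: acccaagcttcTGAtaaacttgTGAgaTAA
The brightest JAK3 probe, at chr7:5256189-5256248 on the plus strand, holds the polyadenylation signal AATAAA, in capitals in its bases 31 to 60. That signal or ATTAAA, searched on the sense strand, was found in 3 JAK and STAT probes (13%) and in 11.5% of all probes:
JAK3: gtgttcattgaatgAATAAAgaagttcagt
The brightest TYK2 probe, at chr7:13340536-13340595 on the minus strand, holds 10 TG repeats, in capitals in its bases 29 to 58. A run of 8 or more TG or GT repeats on either strand occurred in 14 probes of the whole array (0.0273%), so the signal of this probe was set beside that of the second TYK2 probe:
TYK2: cacttTGTGTGTGTGTGTGTGTGTGtaagc

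The next probes lie in coding sequence with an open reading frame, and are shown for the protein parts they read. Of them, only the second STAT5A probe is the one whose difference stands for its gene below. The domains named for them come from background knowledge of these proteins, not from an annotation of the array. The JAK2 probe crosses a splice junction (chr8:41561113-41564922, minus strand) and holds the glycine-rich loop that folds over ATP in the catalytic kinase domain, in capitals. The codon pattern of that loop, GGNNNNGGNNNNNNNGGN on either strand, occurred in 3.04% of all probes:
JAK2: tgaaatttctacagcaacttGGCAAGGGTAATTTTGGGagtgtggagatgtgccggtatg
The JAK1 probe lies at the end of the same domain (chr3:86532932-86532991, plus strand):
JAK1: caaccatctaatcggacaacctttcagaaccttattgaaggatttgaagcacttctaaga
The STAT6 probe, the only one for that gene, lies in the SH2 domain, which binds phosphotyrosine (chr5:60846196-60846255, plus strand):
STAT6: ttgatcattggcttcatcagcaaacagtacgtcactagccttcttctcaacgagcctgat
The pair of STAT5A probes below behaved differently. The first, from the coiled coil (chr19:43734488-43734547, plus strand), was well above background on neither array. It is annotated with 2 RefSeq transcripts, so it may not report STAT5A alone. The second, from the part after the SH2 domain, crosses a junction (chr19:43747685-43748744, plus strand) and was detected on both arrays:
STAT5A, first: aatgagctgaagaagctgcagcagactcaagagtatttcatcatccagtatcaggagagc
STAT5A, second: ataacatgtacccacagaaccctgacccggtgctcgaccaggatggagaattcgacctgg

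Signals are given as the scanner's processed signal or as normalized log2 values, in which 0 is the 75th percentile of the array. A difference is the normalized log2 value of the crossbred array minus that of the Zebu array. The spots of 1 probe differed between places on the array with an SD of 0.33 for such a difference, over 5960 probes printed on several spots. This SD was 0.38 for probes with a mean value under -3, 0.29 between -3 and 0, and 0.32 above that, and it covers spotting and scanning only, not the bulls. A gene was counted as higher or lower when its brightest probe differed by 1.5 or more (log2) and the brighter array was well above background as marked by the scanner software, and that threshold is a 2.83-fold change.

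Of the 9 genes, 1 was past the threshold. STAT4 was 2.87-fold higher on the crossbred array, and none was lower by that amount. Among the 24751 gene names detected on at least 1 array, 7.12% were higher and 2.92% were lower, and beside these shares 1 of 8 detected JAK and STAT genes cannot be read as a result about the group. Of the other detected genes, JAK1, JAK2, JAK3, STAT2, STAT3 and STAT5A were below 0, between -0.13 and -1.10, and TYK2 was at 0.20. STAT6 was not well above background on either array. The median of the 8 detected genes was -0.32, against -0.05 over all detected names, and it was -0.22 for the kinases and -0.54 for the factors.

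**Figure D1:**
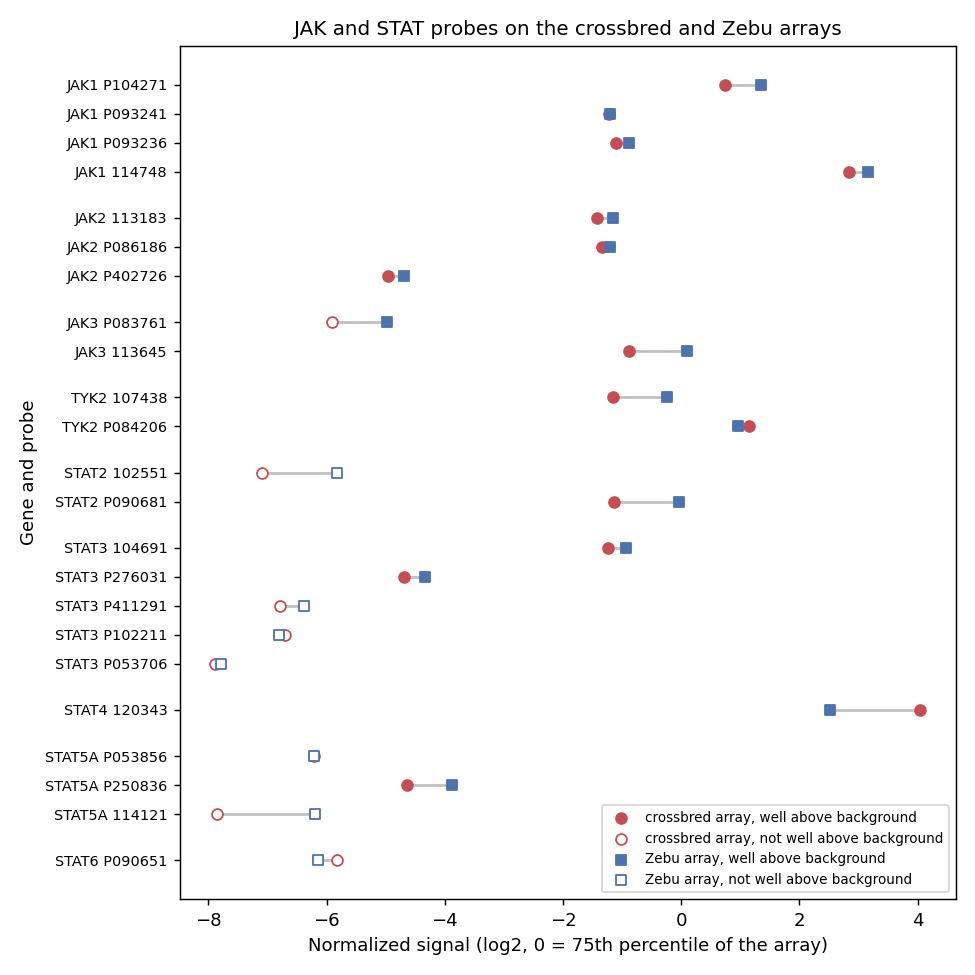
Normalized signal (log2, 0 = 75th percentile of the array) of the 23 JAK and STAT probes, with circles for the crossbred array, squares for the Zebu array and open symbols where a spot was not well above background. STAT4 was the one gene with a crossbred value clearly to the right of the Zebu value (4.04 against 2.52), while JAK3, STAT2 and 1 of the 2 TYK2 probes lay to the left of it by about 1.

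STAT4 carries signals of interleukin-12 and interleukin-23 in T and NK cells. Its spot gave a processed signal of 19381 in the crossbred pool and 7069.7 in the Zebu pool, which are normalized values of 4.04 and 2.52. The crossbred value was thus higher by 1.52, which is 4.61 times the SD between spots, and 6.88% of detected gene names had a larger difference. No second probe or spot was there to check it. The spot lies in the rows of a dark patch of the crossbred array, 6 columns from its edge, but the median difference of its 18 nearest spots was 0.00 and none of its 6 adjacent spots was past the threshold in either direction. The difference stood 0.02 above the threshold. It was 1.49 with the median of the nearest spots subtracted and the percentile taken again, just under 1.5 with the percentile taken over probes detected on both arrays, 1.42 with normexp background correction and 1.39 with quantile normalization, and under these 4 settings no JAK or STAT gene was counted.

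**Figure D2:**
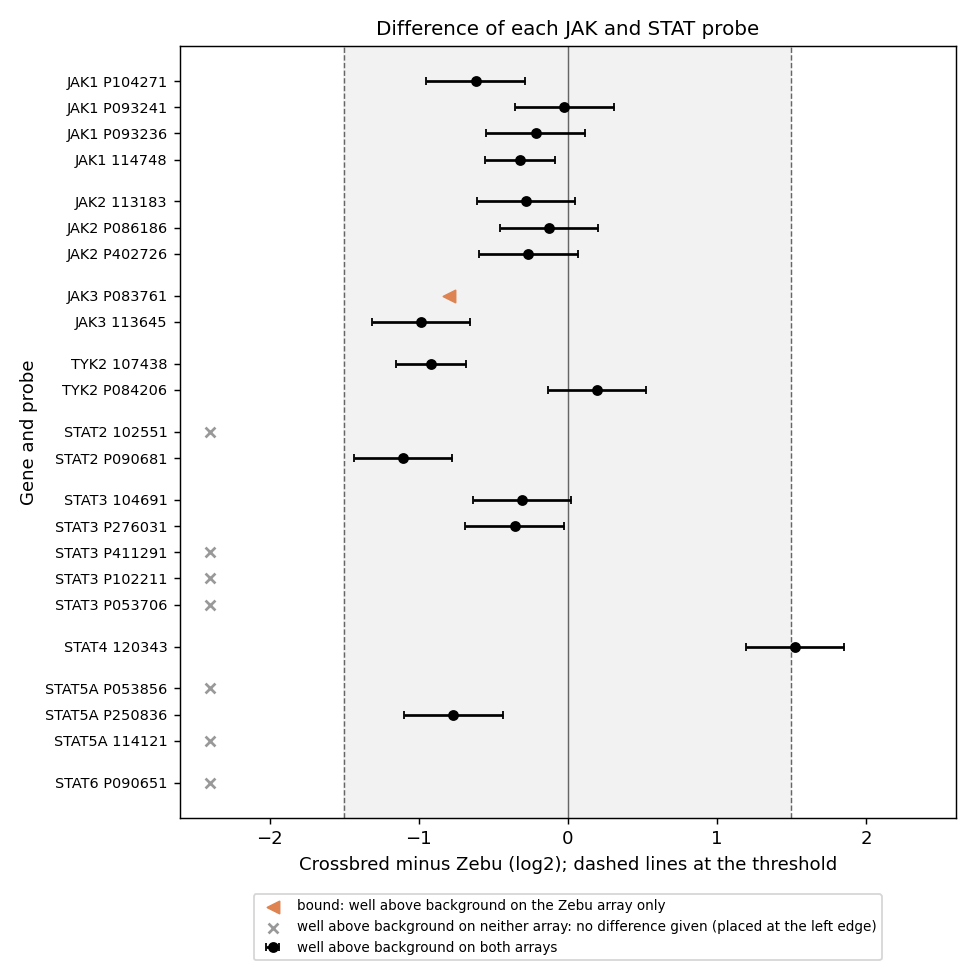
Crossbred minus Zebu difference (log2) of each JAK and STAT probe, with bars of 1 SD between spots divided by the square root of the number of spots, a triangle for a bound and crosses at the left edge for probes with no difference. STAT4 at 1.52 was the single probe past the dashed line, and 14 of the 16 probes with a value lay below 0.

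Of the 16 JAK and STAT probes detected on at least 1 array, 14 were below 0, while 54.3% of all detected probes were. The probes of 1 gene share a transcript and are not separate samples, and JAK1 alone gave 4 of them.

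Among the kinases, JAK1 serves receptors of interferons and of the interleukin-6 family. Its brightest probe was printed on 2 spots, with processed signals of 8745 and 8002 in the crossbred pool and 10779 and 11155 in the Zebu pool, so that both crossbred spots were below both Zebu spots. The difference was -0.32, and the pair of spots gave -0.23 and -0.41. The remaining 3 probes gave -0.62, -0.22 and -0.02, the last from the coding probe shown above. The probe at -0.62 (signals of 1953 and 3143) crosses a junction of 8170 bases of genome. All 4 lay on the same side of 0, and all but 1 lay within 0.33 of it.

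JAK2 serves the receptors of prolactin, growth hormone, leptin and interleukin-12. Its 3 probes gave -0.13, -0.28 and -0.27, each smaller than the SD between spots. The last is the probe over the glycine-rich loop, with signals of 37.8 in the crossbred pool and 47.6 in the Zebu pool, close in size to the local background of 32 on both arrays. For the brightest probe the 18 nearest spots had a median of -0.27, and with that subtracted the value turned to 0.12. No difference of JAK2 beyond the SD between spots was seen by any of its probes.

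JAK3 pairs with the common gamma chain of the receptors for interleukins such as 2, 7 and 21 and is best known from lymphocytes. The probe with the polyadenylation signal gave signals of 636 in the crossbred pool and 1319 in the Zebu pool, a difference of -0.98 or 1.98-fold. The second probe, 1061 bases upstream, stood well above background in the Zebu pool alone (39.1 against 19.7), which gives at least 1.74-fold lower on the crossbred array. Both probes lay on the same side, and 9.24% of detected names had a lower difference than JAK3.

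TYK2 works with JAK1 and JAK2 at interferon and interleukin-12 receptors. Its probes disagreed. The probe with the TG repeats gave 2616 in the crossbred pool and 2394 in the Zebu pool, a difference of 0.20. The second probe, 1308 bases downstream and printed on 2 spots, gave 547 and 509.9 in the crossbred pool against 1168 and 933 in the Zebu pool, a difference of -0.92. Its spots gave -1.03 and -0.80, so they differed from each other by less than they did from the first probe. The direction of TYK2 therefore depended on the probe, and over both probes the mean was -0.36.

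STAT2 joins IRF9 in the complex that answers type I interferons. Its brightest probe (chr5:61574537-61574596, plus strand) gave signals of 535 in the crossbred pool and 1206 in the Zebu pool. This difference of -1.10, or 2.15-fold, was the second largest in size of the 8 detected genes and 3.34 times the SD between spots, and 7.04% of detected names lay lower. The 18 nearest spots had a median of -0.23, and with that subtracted the value was -0.91. The second STAT2 probe was well above background on neither array.

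STAT3 answers the interleukin-6 family, leptin and growth factors. Of its 5 probes, 2 were well above background, and these gave -0.31 and -0.36. The brighter had signals of 499 and 647, and the dimmer 45.4 and 60.9, each with the crossbred array below the Zebu array by about the SD between spots. The other 3 were dim on both arrays. They include a pair that overlap by 54 bases, with 3 differing bases between them, and both members of that pair were not well above background.

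STAT5A is the factor of prolactin and growth hormone. It lies beside STAT3 on chromosome 19 on the opposite strand, with their transcript ends facing each other, and 2566 bases separate the nearest probes of the 2 genes. The junction-crossing probe gave 47.1 in the crossbred pool and 84.1 in the Zebu pool, beside a local background of 28 on both arrays. Its difference of -0.77, or 1.70-fold, was 2.32 times the SD between spots, but the value was -0.29 with normexp background correction. The probe nearest the end of the transcript, printed on 2 spots, was well above background in no spot.

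STAT6 answers interleukin-4 and interleukin-13. Its single spot read 20.7 in the crossbred pool and 17.4 in the Zebu pool, less than the local backgrounds of 36 and 37. No difference is given for it, and its level was not detectable on either array.

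**Figure D3:**
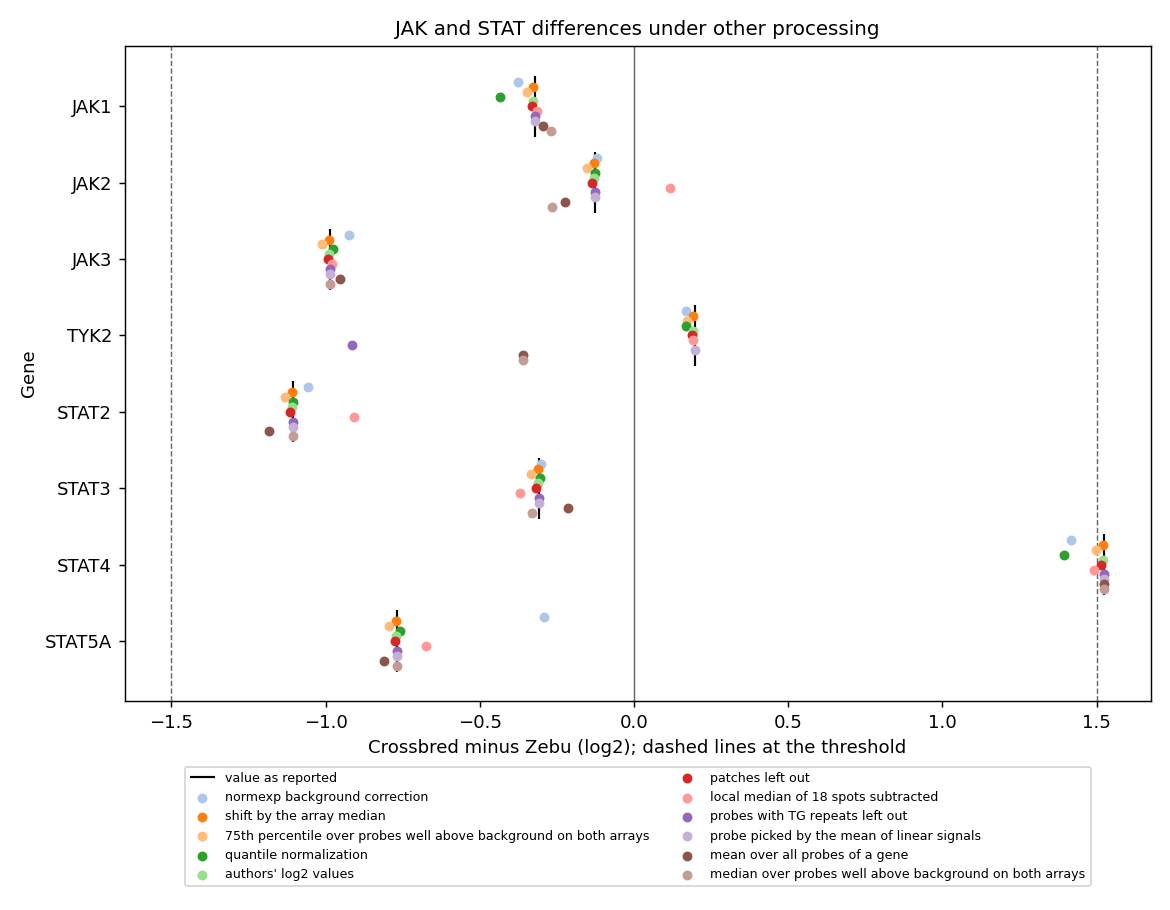
Crossbred minus Zebu difference (log2) of the 8 detected JAK and STAT genes as reported (vertical lines) and under 11 other settings (points, named in the legend). JAK3, STAT2, STAT3 and JAK1 stayed below 0 throughout, STAT4 moved between 1.39 and 1.52 around the dashed threshold, and TYK2 moved from 0.20 to -0.92 with the probe used.

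The rest of the pathway was read from 5 lists of 113 genes on the array, of which 87 were detected. On the crossbred array 10 of these genes were higher and 2 were lower. That is 11.5% and 2.30% of the detected ones, beside the 7.12% and 2.92% over all names. The lists were drawn up with earlier results of these arrays known, so their counts are descriptions. Among the higher genes, IL5, CTF1, IL21, IFNB3, PRL, IL12RB2, IL20RA and SOCS7 are also among those the study grouped under this pathway. The study chose them on these same arrays, so the higher count is not apart from that choice.

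**Figure D4:**
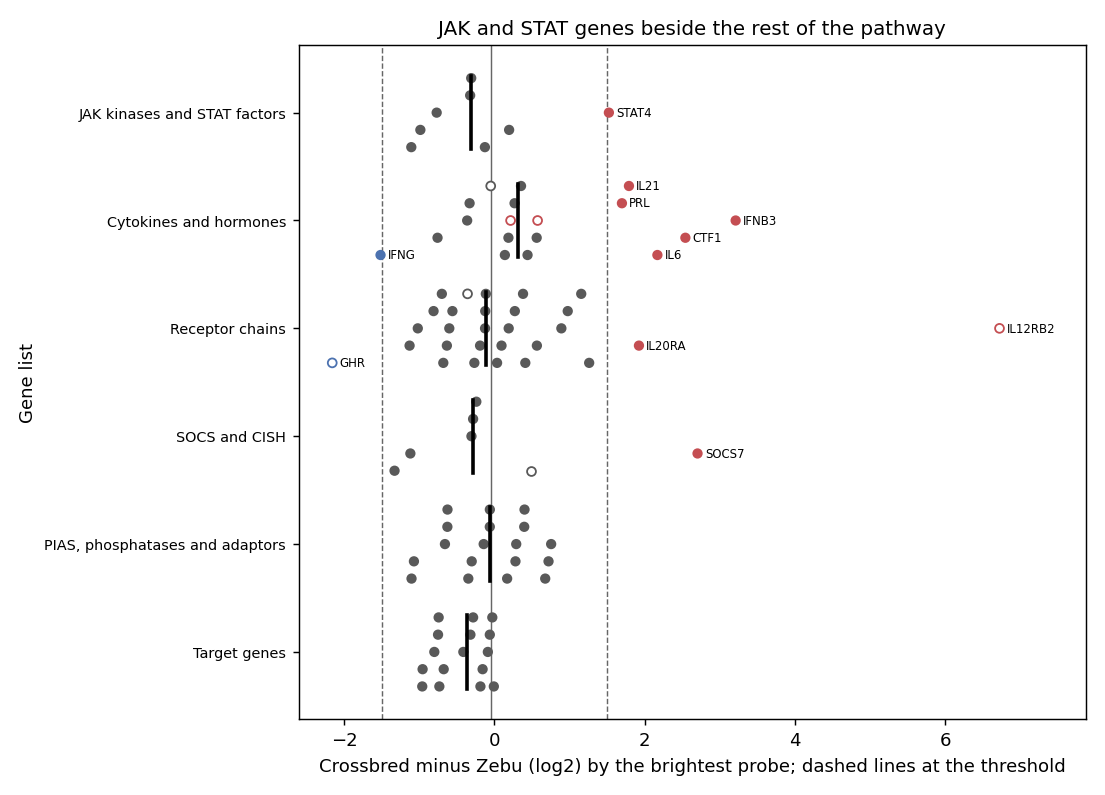
Crossbred minus Zebu difference (log2) of the detected genes by list, each from its brightest probe, with red for higher, blue for lower, open circles for bounds, thick bars for list medians, dashed lines at the threshold and a thin line at the median of all detected names. The red open circles inside the lines are IL5 and IFNW1, counted by their measured difference but drawn at their bound, and the genes past the lines were ligands, receptor chains, SOCS7 and STAT4, and no adaptor or target gene lay past them.

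Ligands had the most genes past the threshold. Of 36 cytokines and hormones on the array 18 were detected, 7 were higher and 1 was lower, with a median of 0.31. The interferon IFNB3 was higher by 3.21, cardiotrophin CTF1 by 2.54, the inflammatory cytokine IL6 by 2.17, the lymphocyte cytokine IL21 by 1.79 and prolactin (PRL) by 1.70. On the Zebu array IFNB3 (-5.62), CTF1 (-5.50) and IL21 (-5.25) stood close to the lowest value well above background there (-5.94). CTF1 and IL6 each had 2 other probes, and these were detected on neither array. Prolactin was read by 7 probes, and 5 of the 6 others were past the threshold too, with a median of 1.79. IL5 and IFNW1 were dim on the Zebu array and are at least 1.16-fold and 1.49-fold higher. For IFNW1 the 18 nearest spots had a median of 0.65, beside its bound of 0.57, and its 3 other probes were detected on neither array. For IFNB3, 4 of the 6 adjacent spots were past the threshold as well. The part of place on the array in the IFNW1 and IFNB3 values was not tested. Interferon gamma (IFNG), the classic product of STAT4 in T cells, was lower by its brightest probe (-1.51) but not by its second (-0.18). The brightest ligands not past it were IL23A at 0.35, IL12A at 0.44, TSLP at -0.36 and IL10 at 0.27.

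Receptor chains numbered 36 on the array, and 28 were detected with a median of -0.12. IL12RB2, the signalling chain of the interleukin-12 receptor, was at least 105-fold higher on the crossbred array and dim on the Zebu array. It had 1 spot, 4 of the 6 adjacent spots were past the threshold in the same direction and the median of its 18 nearest spots was 2.29. Whether its value came from its place on the array was not tested. IL20RA was higher by 1.92, with a median of 0.11 around it, and the growth hormone receptor GHR was at least 4.46-fold lower. The 2 other GHR probes were detected on neither array. Of the brightest chains not past the threshold, IL10RB was at -0.81, IL11RA at -0.63, IL27RA at -1.02 and IFNGR2 at -0.60.

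The feedback inhibitors SOCS1 to SOCS5, SOCS7 and CISH were all detected. SOCS7 was higher by 2.70, and by 2.17 on its second probe. The others were not past the threshold, and SOCS5 was at -0.30, SOCS1 at -1.12, CISH at -0.24 and SOCS4 at -0.28. The list's median was -0.28.

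None of the 18 PIAS proteins, phosphatases and adaptors was past the threshold by its brightest probe, and their median was -0.06. Of their other probes, 1 of PIAS2 was higher, at 1.64, and 1 of PIAS3 was lower by its measured difference. That PIAS3 probe was dim on the crossbred array, and the values or bounds of the other PIAS3 probes were -0.91 and -0.61. The phosphatases PTPN1 and PTPN2 were at -0.06 and 0.40, the adaptor SH2B1 at -0.62 and STAM2 at 0.72. The 16 genes that STAT proteins are known to switch on were all detected, and none was past the threshold by its brightest probe, though the second probe of PIM1 was, at -1.60. Their median was -0.37, and all 16 lay below 0 by their brightest probe, where 52.8% of all detected names did. The cyclin CCND2 was at -0.95, the survival genes MCL1 at -0.32 and BCL2L1 at -0.06, and the cell cycle inhibitor CDKN1A at -0.09. Of 10 target genes with another detected probe, 5 had one above 0. These were BCL6 (1.46), CDKN1A (1.39), MCL1 (a median of 1.17 over 2 probes), CCND3 (0.19) and BCL2L1 (0.03), chosen for this after their values had been seen.

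The 13 genes that the study grouped under this pathway were chosen on these same arrays, so their direction is not independent evidence. By their brightest probe 10 were higher, and the median was 1.70. STAT4 was the single JAK or STAT gene among them. PIK3CD of that list lay inside the bright patch of the crossbred array, where 5 of the 6 adjacent spots were higher, and its 3 other probes had a median of -0.35. The brightest PIAS2 probe gave -0.30, and 1 of its other 3 probes was past the threshold.

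Set beside the ligands and receptors they are known to serve, the kinases and factors did not share 1 direction. The genes of this paragraph were chosen for these known pairings after their values had been seen. On the interleukin-12 route, IL12A was at 0.44, IL12B at -0.33 and STAT4 at 1.52, IL12RB2 was at least 105-fold higher, and IL12RB1 was well above background on neither array. Downstream, IFNG was at -1.51 by its brightest probe but at -0.18 by its second. The T cell factor TBX21, which works next to STAT4, was at -0.01. The genes past the threshold on this route thus went both ways only by the brightest IFNG probe. STAT4 stood just above the threshold, and the part of place in the IL12RB2 value was not tested. On the type I interferon route, the ligand IFNB3 was higher by 3.21 and IFNW1 at least 1.49-fold higher. Spots near both were raised as well, as given above, and the part of place was not tested. By contrast, the receptor chain IFNAR2 was at -1.13, IRF9 at -1.10 and STAT2 at -1.10, and IFNAR1 was well above background on neither array. IL6 was higher by 2.17 on its brightest probe, the others being dim, and STAT3 was at -0.31. The receptor chains between them turned with the probe, with IL6R at 0.98 and -0.29, and the shared chain IL6ST at 0.19 by its brightest probe and at -0.31 and -1.15 by the others. For prolactin and growth hormone, PRL was higher by 1.70 and PRLR was well above background on neither array. GHR was lower by its brightest probe, the others being dim, and STAT5A was at -0.77. IL2RG, the chain that JAK3 binds, was at -0.12, and IL4R, upstream of STAT6, was at -0.56.

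Whole tissue RNA holds every cell type of the testis, and fewer cells of a type and less RNA per cell cannot be told apart in it. The tissue label was met by bright spermatid markers on both arrays, with PRM1 at 7.43 and 7.07. The 7 spermatid markers lay above 0 and 5 of them were past the threshold (TNP2, ACRV1, ODF1, AKAP4 and SPATA19), with a median of 1.71, and their summed normalized signal, on the linear scale, was 431 in the crossbred pool and 245 in the Zebu pool. STAT4, at 1.52, lay within the range of these 7, which was 0.36 to 2.13, and also within those of the macrophage list (-0.19 to 1.95) and the B and plasma cell list (0.25 to 4.35). In the macrophage list only AIF1 lay above STAT4, and in the B and plasma cell list only MS4A1 did. The 10 T and NK cell markers, which mark the cells STAT4 and JAK3 are best known from, had none past the threshold and a median of -0.58, with summed signals of 8.75 and 11.6. These values come from the brightest probes. Other detected probes gave 0.13 and 0.55 for CD3D and -0.14 and 0.36 for CD3G, while those of LCK and CD247 lay below 0. JAK3, at -0.98, lay within the range of the 10 markers by brightest probe, -1.36 to 0.07, and so did STAT2 and STAT5A. Those 3 also lay within the ranges of the spermatogonia (-1.13 to 0.77), Sertoli cell (-1.39 to -0.58) and Leydig cell (-1.77 to -0.10) lists.

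**Figure D5:**
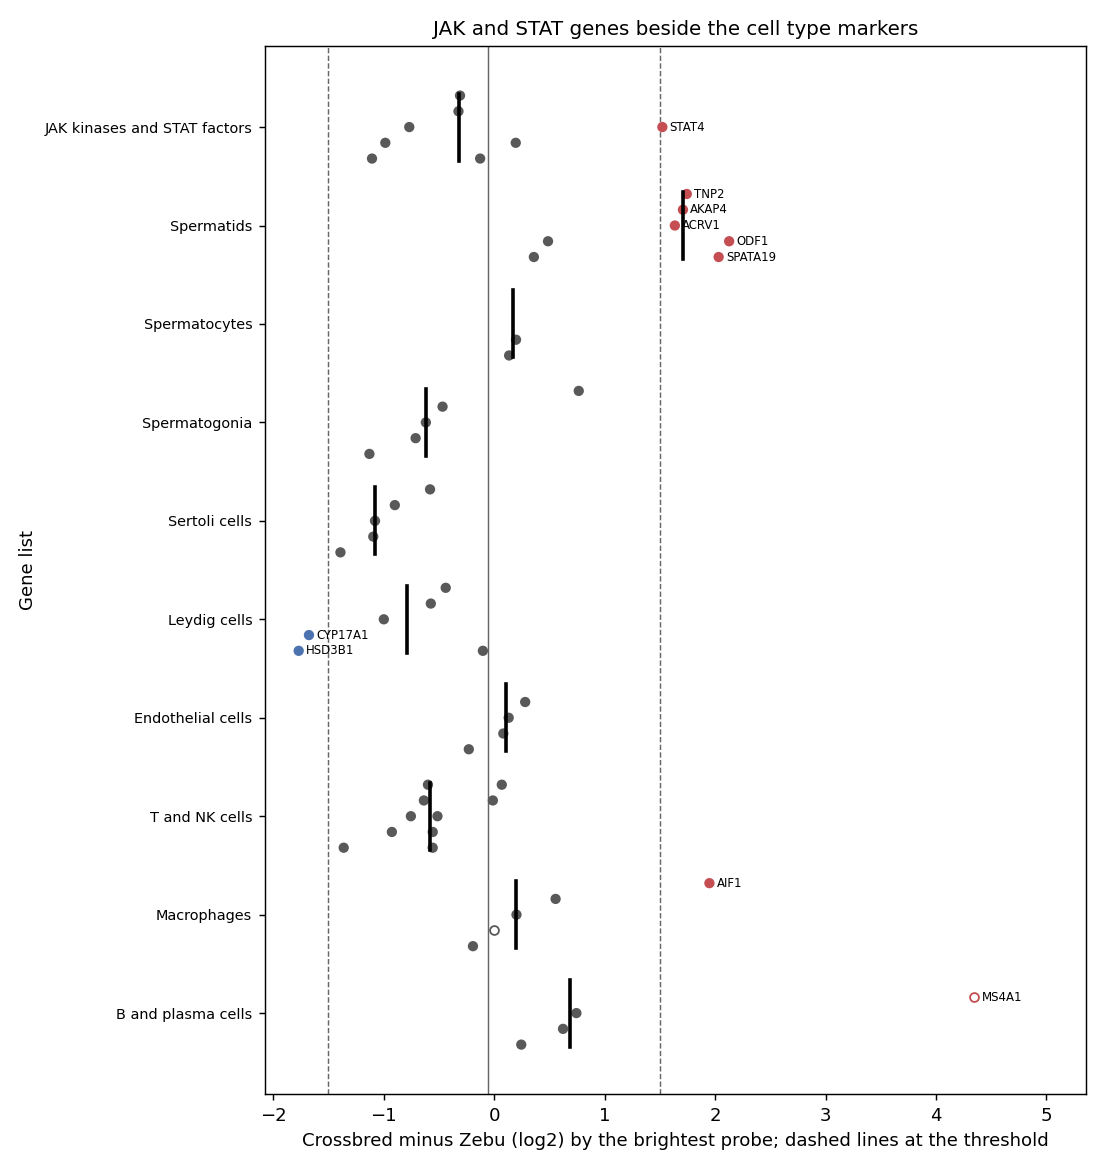
Crossbred minus Zebu difference (log2) of cell type markers by list, drawn as in the plot of the pathway lists, with the JAK and STAT genes in the top row. STAT4 lay within the ranges of the spermatid, macrophage and B and plasma cell lists, though of the macrophage and B and plasma cell markers only AIF1 and MS4A1 lay above it. STAT2, JAK3 and STAT5A lay within the ranges of the spermatogonia, Sertoli, Leydig and T and NK cell lists.

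The somatic lists did not share 1 direction. The 5 Sertoli cell markers had a median of -1.08 and summed signals of 54.4 and 102.7. The 6 Leydig cell markers had a median of -0.79, with the steroid enzymes CYP17A1 and HSD3B1 past the threshold, and summed signals of 87.8 and 132.5. The spermatogonia list had a median of -0.62 (33.1 and 43.4), the 2 spermatocyte markers on the array 0.17 (9.26 and 8.32), the endothelial list 0.11 (0.757 and 0.721), the macrophage list 0.20 (17.9 and 9.32) and the B and plasma cell list 0.68 (1.94 and 1.16). AIF1 and MS4A1 of the last 2 were past the threshold. The part of any cell type in the values of STAT4, STAT2, JAK3, TYK2 or STAT5A was not tested.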

How the data were processed

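Testis RNA of 3 crossbred and 3 Zebu bulls was pooled within each group, 1 array per pool. The deposited intensity values are processed Cy3 signals, background-subtracted and detrended within the array by Agilent Feature Extraction 11.5.1.1, per the file headers. The log2 values deposited by the authors are the same signals minus the 75th percentile of each array, from GeneSpring GX. They lay within 0.01 of the values computed here for 98.8% (crossbred) and 98.9% (Zebu) of probes, and their column medians were -3.00 and -3.01.

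Here control spots and 13 outlier spots, none of them of a JAK or STAT gene, were left out, spots sharing a probe were averaged as log2 signals, and each array's 75th percentile (1176 and 1233 on the signal scale, over probes) was subtracted. No spot was saturated, and 72% and 74.3% of spots were well above background. Each gene's value is that of the probe whose mean log2 value was highest. Picking by linear signals, before or after the shift, was also tried once the values had been seen, and it left every JAK and STAT probe the same. Where 1 array was dim, the difference is a bound against the higher of the dim spot's own value and the lowest value well above background there (-5.78 and -5.94), and where both were dim none is given. A gene dim on 1 array was counted by its measured difference, so its bound can be under the threshold. Patches covered rows 54 to 99 with columns 35 to 46 (dark) and rows 153 to 167 with columns 50 to 56 (bright), and held 0 of the 26 JAK and STAT spots.

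Named genes were the 9 members with every probe, and of the pathway lists each gene past 1.5 and the 4 brightest others. The members and lists were chosen with earlier results of these data known. Alternatives were other scalings, normexp (offset 50, limma 3.58.1), the authors' log2 values, other probe rules, other filters and thresholds, and the patches left out. Subtraction of the median of the 18 nearest spots, leaving out TG repeat probes and the linear pick were added after seeing the data. The difference and count code was tested on simulated data. Python 3.11.15 and numpy 2.4.6 were used. With 1 array per group, the number of arrays limits the precision. Gene annotation of the array's build was not used here, so exon and UTR positions are not given.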

Additional observations from a re-analysis of the deposited data

How the results depend on the processing

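Of 88 values of the 8 detected JAK and STAT genes under 11 alternatives, 84 moved by less than the SD between spots, and 4 moved by more: TYK2 with its TG repeat probe left out (-0.92), with the mean over its probes or the median over its detected probes (-0.36 in both), and STAT5A with normexp correction (-0.29). STAT4 stayed at 1.5 or more under 7 of its 11 alternatives. With 1 probe and no TG run, it could not be changed by other probe rules or by leaving out TG repeat probes. Among settings able to move it, it stayed there with the array median shift (1.52), the authors' values (1.52) and the patches left out (1.51). Likewise, leaving out TG repeat probes could change only TYK2, and the linear pick changed no JAK or STAT probe. The count of higher JAK and STAT genes was 0 instead of 1 with normexp correction, with the percentile over probes detected on both arrays, with quantile normalization and with the nearest-spot median subtracted, and the count of lower ones was 1 instead of 0 at a threshold of 1 and 3 at a threshold of log2(1.5). In the pathway lists, the 10 higher genes became 5 with normexp correction. They became 7 with the mean over all probes, with the median over detected probes or with both arrays required above background. With the nearest-spot median subtracted they were 9, and they were 12 at a threshold of 1, 17 at log2(1.5) and 18 when every probe was counted. The 2 lower ones became 0 with normexp correction or the mean over all probes, 1 with the nearest-spot median subtracted, with the median over detected probes or with both arrays required above background, 4 when every probe was counted, 9 at a threshold of 1 and 26 at log2(1.5). The median of the list the study drew up was 1.36 with normexp correction instead of 1.70. The cause of these moves was not tested. The median of the JAK and STAT genes ranged from -0.54 to -0.30, and the alternatives moved the median of all detected names by at most 0.0318. Over all names the linear pick gave 1795 higher and 737 lower genes instead of 1762 and 722, and normexp correction gave 1030 and 169. No paired analysis was possible because each group had 1 array. Signals near the local background, as for STAT5A, STAT6 and the dim JAK2 probe, limit what these arrays can show for those genes.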
